A study of Drosophila melanogaster with 2 samples.

Results

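The 32 Dpr and DIP genes of Drosophila melanogaster, 21 dpr genes and 11 DIP genes, were examined in Araucan ChIP-seq peak lists from whole embryos. They are the protein-coding genes of the Ensembl annotation whose symbol is dpr followed by a number or DIP- followed by a Greek letter name, out of 13945 protein-coding genes on the assembled arms. The 2 samples, both biological replicates per the labels, were whole ara-GFP embryos aged 0 to 24 h with a transgene that makes a fusion of Araucan and enhanced green fluorescent protein, and chromatin was recovered with an antibody against the fluorescent tag. No other group was present, so the genes of the family were set against other genes, and the tag, the strain and the mixed embryonic stages are shared by every value. Binding in the neurons that use these proteins cannot be told apart from binding in other cells of the embryo. Read counts are not part of the lists, and the depth is unknown. The conservative list of 4706 peaks on the assembled arms, made from both replicates, was the main source, and the median of its signal column, in the authors' units, was 96.2. A gene's locus is the gene with 5 kb on each side, and a locus is counted as bound where a peak summit falls in it.

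Dpr and DIP proteins are immunoglobulin superfamily proteins of the neuronal surface. A Dpr on one cell binds its DIP partners on another, and these pairs act in the matching of synaptic partners, in axon targeting and in the survival of neurons in the visual system, the neuromuscular system and the brain. The founding gene, dpr1, was found through the proboscis extension response to salt. Araucan, encoded in the Iroquois gene complex, is a transcription factor with a homeodomain and is known for patterning of sensory organs, the wing and the eye.

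The sequences under the summits show what the few Araucan peaks of the family cover. The first 4 windows below are those of the summits inside a dpr or DIP gene, and the other 3 are the strongest summit of any locus and the pair nearest to a start site of the family, at dpr19 and dpr14. Each runs from 50 bases before to 50 after the summit on the plus strand of dm6, from the RefSeq genome of that assembly. Capitals mark matches to the 4 motifs searched on both strands, which were ACANNTGT (the Iroquois palindrome), TAACA (a shorter Iroquois site), TAATTA (the homeodomain core) and TATCGATA (the DREF site).
DIP-alpha, chrX:3546299-3546399: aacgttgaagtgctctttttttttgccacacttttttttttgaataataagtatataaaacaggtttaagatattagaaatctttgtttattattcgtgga
DIP-eta, chr2L:5610210-5610310: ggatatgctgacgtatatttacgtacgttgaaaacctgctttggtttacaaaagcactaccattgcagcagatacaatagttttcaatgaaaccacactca
dpr3, chr2L:2084518-2084618: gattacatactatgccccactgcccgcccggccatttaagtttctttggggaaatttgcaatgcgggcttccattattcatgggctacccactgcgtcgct
dpr6, chr3L:10110579-10110679: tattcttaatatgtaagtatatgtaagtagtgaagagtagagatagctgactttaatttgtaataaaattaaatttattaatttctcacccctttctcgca
DIP-iota locus, chr2L:6612663-6612763: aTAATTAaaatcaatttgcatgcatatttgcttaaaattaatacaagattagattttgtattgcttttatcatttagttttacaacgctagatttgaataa
dpr19, chr2L:10375875-10375975: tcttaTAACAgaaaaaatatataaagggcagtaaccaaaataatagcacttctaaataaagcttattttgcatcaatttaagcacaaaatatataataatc
dpr14, chrX:7908706-7908806: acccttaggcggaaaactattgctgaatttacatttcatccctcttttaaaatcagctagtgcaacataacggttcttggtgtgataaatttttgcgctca

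None of the 4 windows inside a gene of the family held any of the 4 motifs. Over all 13 summits in the loci, 0 windows held the palindrome, against 4.80% of all 4706 summit windows. TAACA was in 1 of the 13 (dpr19), against 24.5% of all windows, and TAATTA in 1 (the DIP-iota locus), against 8.73%. TATCGATA was in 0, against 0.935%. With 13 windows these shares are coarse, and a window without a match says only that these letters were not in it. The genes themselves were not poor in the palindrome. It occurred 0.372 times per kb in dpr and DIP genes and 0.368 times per kb in other protein-coding genes. TAACA occurred 2.29 times per kb in dpr and DIP genes, against 2.03 per kb in the others, and TAATTA 0.821 against 0.670 per kb, with a GC share of 40.9% in the family and 43.0% in the other genes.

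Most Dpr and DIP loci held no Araucan peak. A summit fell in 10 of the 32 loci, 31.3% (95% Clopper-Pearson interval 16.1 to 50.01), where 43.7% of all protein-coding loci held one. Dpr and DIP genes are long, with a median gene length of 32.5 kb against 2.16 kb for the other genes, and long loci are bound more often (40.3% of other genes in the 17 bins of shortest loci, 61.3% in the next 2 bins and 66.3% in the longest). From the share of other genes bound in each of 20 bins of locus length, 19.8 of 32 were expected, so that the observed count was 0.505 of it (0.261 to 0.808 from the binomial interval of the count). Among dpr genes 6 of 21 loci were bound where 12.7 were expected, and among DIP genes 4 of 11 where 7.0 were expected. In the 17 bins of shortest loci 4 of 7 members were bound. These 7 lay in bins 14 to 17, counted from the shortest, so the 40.3% of other genes is not matched to them in length. Of the 100 genes nearest in length to each, 43 to 63 had a summit. In the next 2 bins 2 of 8 members were bound, against 61.3% of other genes. Of 17 members in the longest bin 4 were bound, 23.5%, against 65.3% of all 697 genes in that bin. Outside the longest bin 6 of 15 were bound where 8.52 were expected.

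**Figure D1:**
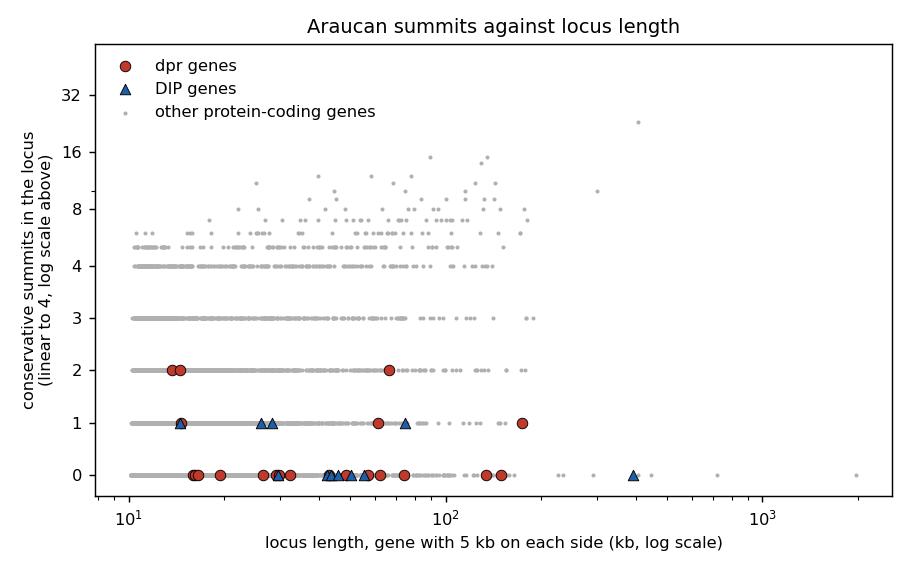
The number of conservative summits in each locus (vertical axis, linear to 4 and logarithmic above) against locus length in kb (log scale), 1 point per protein-coding gene, with dpr genes as red circles and DIP genes as blue triangles over the other genes in grey. No dpr or DIP locus held more than 2 summits, and 22 of the 32 lie at 0, the long dpr8, dpr21 and DIP-lambda among them.

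Inside the genes, summits were rarer still relative to length. Only 4 of the 32 genes held a summit between their ends, 12.5%, where 14.04 were expected from length. The share of all protein-coding genes with a summit inside was 12.2%, but in the longest bin it was 54.7%. There 3 of 17 dpr and DIP genes held one. Of the family, dpr19 and dpr14 had a summit at most 500 bp from one of their transcription start sites (TSS), 2 of 32 genes (6.25%), against 15.1% of all protein-coding genes. In the longest bin it was 0 of 17 members, against 23.5% of the other 680 genes. Outside that bin it was 2 of 15 members. In 6 of the 32 (DIP-alpha, DIP-zeta, DIP-lambda, dpr7, dpr16 and dpr18) a start site lay in a stretch of more than 10 kb without a peak of any rank. This share was not computed for other genes, and the part of these stretches in the counts was not tested.

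DIP-alpha held the strongest peak inside any gene of the family. The gene, the surface receptor that binds Dpr6 and Dpr10, lies at chrX:3507245-3571649 on the minus strand, and its summit at 3546349 had a signal of 208.7, higher than 84.7% of conservative peaks. Its signal was 77.8 in replicate 1 and 124.4 in replicate 2, and both replicates' own lists held it. The summit lay in an intron of DIP-alpha, 15684 bp upstream of the nearer of its start sites. It was also 239 bp upstream of the start of lncRNA:CR34335, a non-coding gene inside DIP-alpha on the same strand, which places it in the promoter class. The other 3 were intronic and weaker. DIP-eta, a DIP that binds Dprs of the dpr1 to dpr5 group, held a summit at 5610260, which was 7686 bp downstream of its TSS. Its signal was 81.9, with 32.5 in replicate 1 and 52.1 in replicate 2, and replicate 2's list alone held it. In dpr3 the summit lay 25310 bp into the gene, with a signal of 70.7, and 36.3 in replicate 1 and 41.7 in replicate 2. In dpr6, whose product is a ligand of DIP-alpha, it lay 135978 bp into a gene of 164.7 kb, with a signal of 67.7, and 39.7 in replicate 1 and 29.8 in replicate 2. The nearest protein-coding start sites were those of ppk8, 11463 bp from the DIP-alpha summit, of CG12674, which lies inside dpr3 and starts 4649 bp from its summit, and of CG42826, 9748 bp from the dpr6 summit. Neither the dpr3 nor the dpr6 peak was in either replicate's own list, and both were below the median signal of the conservative list. Replicate 2's list did hold 1 summit elsewhere in the dpr3 locus.

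The other 9 summits lay in the 5 kb flanks, mostly closer to the start sites of other genes. The strongest of all, with a signal of 1639.9, was in the DIP-iota locus, with 648.3 in replicate 1 and 977.7 in replicate 2. It lay in an intron of CG11050, 1026 bp from the start of that gene and 8987 bp from that of DIP-iota, on the far side of it. At dpr19 a summit 243 bp upstream of the TSS (signal 97.8, with 29.7 in replicate 1 and 62.5 in replicate 2) was 168 bp upstream of the start of CG33303. A further summit 5584 bp downstream of a dpr19 start (161.9, with 65.4 in replicate 1 and 102.9 in replicate 2) was 201 bp upstream of CG5096. At dpr14 the summit was 470 bp upstream of a dpr14 start (154.1, with 61.6 in replicate 1 and 87.2 in replicate 2) and 175 bp upstream of spidey, a gene of fatty acid elongation and steroid metabolism. At dpr20 one summit was 103 bp upstream of Dci, an enoyl-CoA isomerase gene (43.4, with 29.9 in replicate 1 and 30.5 in replicate 2).

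Of the 13 summits, 3 had a start site of the family as their nearest protein-coding one, a share not computed for other loci. Besides the DIP-eta peak they were a summit 537 bp upstream of dpr20 (112.8, with 56.8 in replicate 1 and 58.0 in replicate 2) and one 11166 bp downstream of a DIP-delta start, past the end of the gene (132.1, with 57.1 in replicate 1 and 78.1 in replicate 2). Downstream of dpr12, which encodes a partner of DIP-delta, summits at chr2R 5860927 and 5861129 had signals of 47.6 and 8.72. Their peaks overlap, at 5860765-5861088 and 5860967-5861290, and each summit counts separately among the 13. For the first no replicate 2 peak lay within 150 bp, and replicate 1 had 35.2. For the second no replicate 1 peak lay within 150 bp, and replicate 2 had 29.6. Neither was in a replicate's own list, and the nearest protein-coding start, that of CG44438, lay 19468 and 19266 bp away. The dpr12 gene itself ends at 5860831, and no other protein-coding locus contained either summit. Of the 13 summits, 6 were in both replicates' lists, 2 in replicate 2's alone and 5 in neither. Of all conservative peaks, 44.9% were in both lists and 24.8% in neither.

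**Figure D2:**
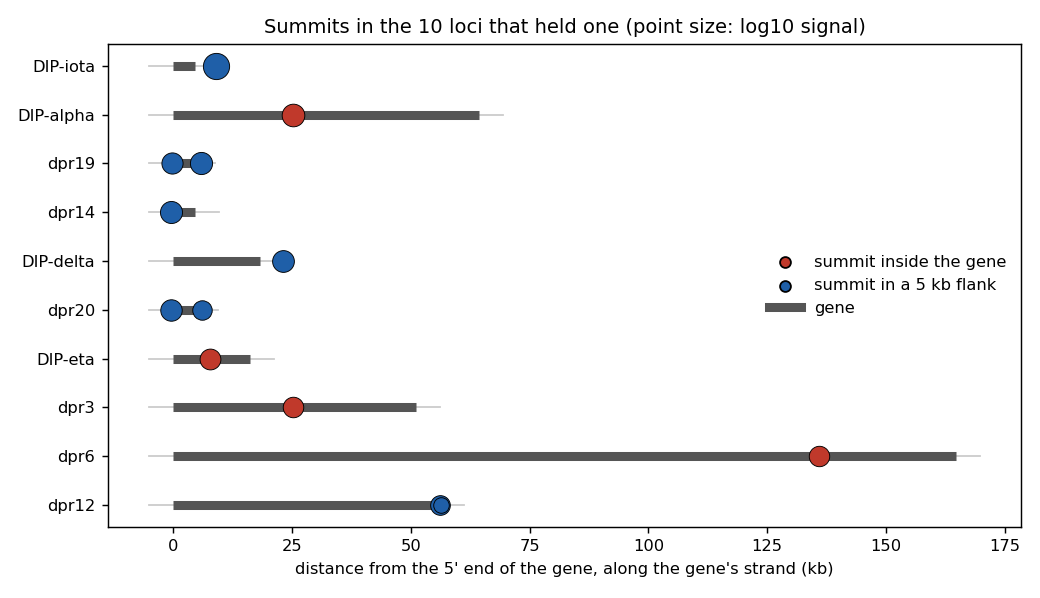
Positions of the 13 summits in the 10 loci that held one, as distance in kb from the 5' end of the gene along its strand. Grey bars are genes, thin lines their 5 kb flanks, and point size follows log10 signal. Red points, summits inside a gene, occur in DIP-alpha, DIP-eta, dpr3 and dpr6, and blue points in the flanks sit near the gene's ends.

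By annotation, 5 of the 13 summits were in promoters (38.5%, against 39.9% of all summits), 4 in introns (30.8% against 37.7%) and 4 intergenic (30.8% against 16.9%). The intergenic ones include both summits of the overlapping peaks at dpr12. With promoters given precedence, none was classed to a coding exon or an untranslated region. Their median signal was 97.8, at the 50.9th percentile of the conservative list, near the middle of the list. DIP summits had a median signal of 170.4 (4 summits) and dpr summits 70.7 (9 summits). The DIP summits include the one in an intron of CG11050, and the dpr summits both of those at dpr12. These medians are therefore not read as a difference between the families. The windows had a mean GC share of 34.5%, against 37.2% over all summits.

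The 22 genes without a summit in the locus were 5.97 to 379.1 kb long. For each, the 100 other genes nearest in locus length were taken, and of these a median of 64.5 had a summit (43 to 74 over the 22 members). The long dpr8, of 140.1 kb, had none where 72 of 100 such genes had one, and dpr21, of 124.5 kb, also had none against 72 of 100. DIP-lambda, the longest gene of the family at 379.1 kb in the proximal 2R, had none against 70 of 100, and its density of ranked peaks was 38.5 per 100 kb, where the median over the 32 genes was 122.2. DIP-gamma and its partner genes dpr11, dpr15, dpr16 and dpr17, known from colour vision circuits for the pair of DIP-gamma and dpr11, all lacked a summit, where 3.23 of 5 were expected from length. So did DIP-beta with dpr8, dpr9 and dpr21 (2.60 of 4 expected), and DIP-kappa with dpr7 (1.16 of 2 expected). The group of DIP-alpha, dpr6 and dpr10 had a summit in 2 of 3 loci, close to the 1.96 expected, and the group of DIP-theta, DIP-eta, DIP-iota and dpr1 to dpr5 in 3 of 8, where 4.83 were expected. DIP-delta and dpr12 had one in 2 of 2, where 1.29 were expected, but the dpr12 locus had 0 summits in each of the other 3 thresholded lists. The remaining loci without a summit were those of dpr13, dpr18, DIP-epsilon and DIP-zeta.

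Weaker peaks were listed in 30 of the 32 genes. They come from the series-wide ranked list, which pairs the replicates and holds 147187 peaks on the assembled arms, most of them below the conservative threshold. Neighbouring summits of that list lay a median of 623 bp apart. The share of all genes with such a peak was not computed, so the 30 cannot be read as a trait of the family. In the 26 with a ranked peak but no conservative summit inside the gene, the strongest had signals from 23.3 in dpr5 to 53.5 in DIP-iota, with a median of 43.4. Replicate 1 gave 15.4 to 43.0 for these peaks (median 22.9) and replicate 2 gave 7.87 to 30.5 (median 18.6), with 1 value missing in each replicate. The nearest to the threshold was in DIP-gamma, with a −log10 global irreproducible discovery rate (IDR, a measure of how poorly ranks repeat between replicates) of 1.80 where no conservative peak had less than 2.00. Its signal was 52.8, with 31.0 in replicate 1 and 24.7 in replicate 2, and its summit lay 2144 bp downstream of the TSS. In dpr1 the strongest ranked peak (48.7, with 23.2 in replicate 1 and 23.3 in replicate 2) lay 156 bp downstream of the TSS. For 27 of the 32 genes, more than 50 of the 100 genes nearest in locus length had a stronger best peak inside the gene. For dpr8 (43.4) it was 93 of 100, for DIP-beta (32.4) 97 of 100 and for dpr12 (39.6) 95 of 100, while for DIP-alpha it was 18.

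**Figure D3:**
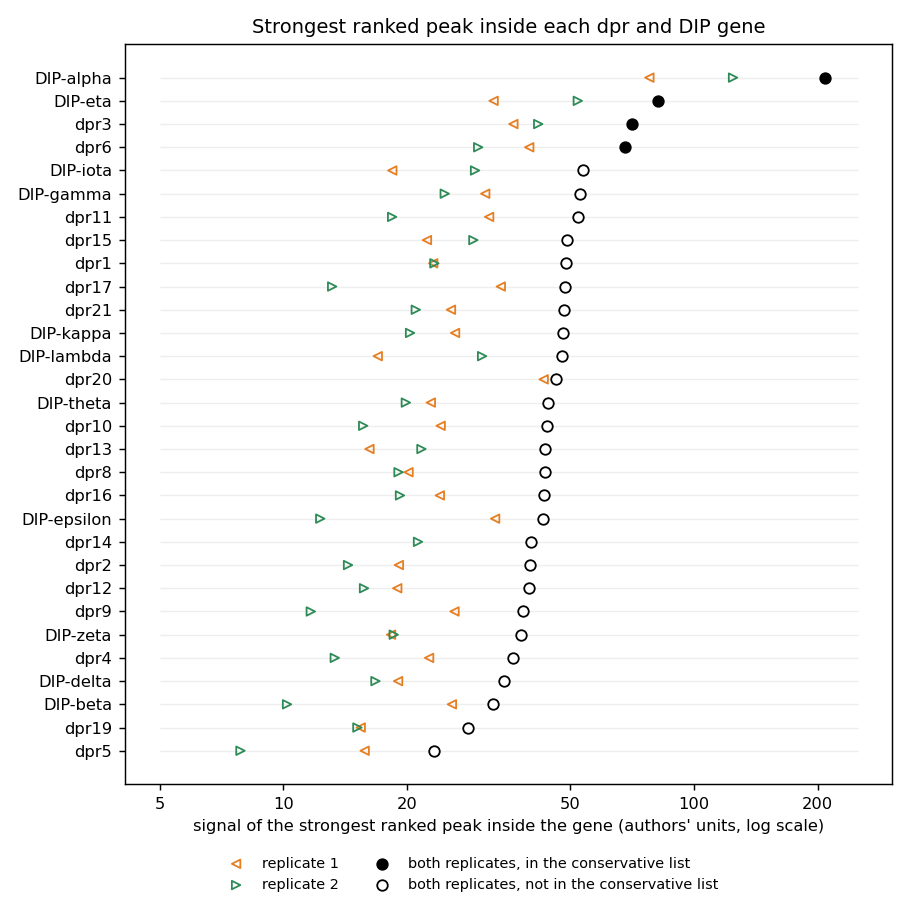
Signal of the strongest ranked peak inside each dpr and DIP gene (authors' units, log scale), with replicate 1 and replicate 2 values as open triangles and the value from both replicates as a circle, filled where the peak is in the conservative list. DIP-alpha stands highest at 208.7, followed by DIP-eta, dpr3 and dpr6, and the 26 open circles lie between 23.3 and 53.5.

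With DIP-gamma, the partner genes dpr11 (52.1), dpr15 (49.0), dpr17 (48.5) and dpr16 (43.1) had their strongest peaks in introns or, for dpr17, in a coding exon. In dpr15 replicate 1 gave 22.4 and replicate 2 gave 29.0, whereas in dpr17 replicate 1 gave 33.8 and replicate 2 gave 13.2. With DIP-beta, signals were 48.2 in dpr21, 43.4 in dpr8 and 38.3 in dpr9. DIP-kappa had 48.0 and dpr10, encoding a ligand of DIP-alpha that is known from muscle, had 43.7. In the group that binds DIP-theta (44.1), the signals were 39.8 in dpr2, 36.2 in dpr4 and 23.3 in dpr5. The remaining unbound genes had 47.6 (DIP-lambda), 43.5 (dpr13), 42.8 (DIP-epsilon) and 37.9 (DIP-zeta). Genes with a summit in the flank alone had values in the same range inside the gene, with 53.5 in DIP-iota, 46.1 in dpr20, 40.1 in dpr14, 39.6 in dpr12, 34.5 in DIP-delta and 28.1 in dpr19.

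No ranked peak was listed inside dpr7, on chromosome 4, or dpr18, on the X chromosome. Both lie in long stretches without any ranked summit, from 33781 to 391296 on chromosome 4 and from 16048343 to 16087144 on X, whereas the median distance between neighbouring ranked summits was 623 bp. There were 314 stretches over 20 kb in all, together 11.5 Mb of 133.9 Mb of arms. Of the 32 genes 4 touched one (also DIP-lambda and DIP-zeta), a share not computed for other genes. Whether reads could be placed there was not tested. Without dpr7 and dpr18 the observed count was 0.533 of that expected from length, and without DIP-lambda and dpr21 it was 0.541.

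Per length, conservative summits inside Dpr and DIP genes were sparser than in other long genes. The difference was not tested, and the spread between genes is not in the intervals. For ranked peaks as a whole the direction changed with DIP-lambda and dpr21 left out together. There were 4 summits in 1.58 Mb of dpr and DIP genes, or 0.253 per 100 kb (exact 95% Poisson interval 0.0690 to 0.648, counting error only). Other genes of the longest bin had 2.81 per 100 kb (2.65 to 2.97), and all other protein-coding genes 3.29. Without DIP-lambda and dpr21 the rate was 0.372 per 100 kb. Counting the flanks, the rate was 0.686 per 100 kb of dpr and DIP loci, against 3.901 in other loci. The genes nearest in length to each member gave an expectation of 56.8 summits over the 32 loci, where 13 were found. In the ranked list there were 101.9 peaks per 100 kb of dpr and DIP genes, 106.7 in other genes of the longest bin and 116.1 in all other protein-coding genes. Without DIP-lambda and dpr21 the family had 121.9 per 100 kb, above both. By itself DIP-lambda had 38.5 per 100 kb and dpr21 had 122.9, where the median over the 32 genes was 122.2. The dpr genes had 123.5 per 100 kb and the DIP genes, DIP-lambda included, 74.1.

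Summits were denser in other neuronal and adhesive immunoglobulin superfamily surface genes. A list of 46 such genes, among them the beat and side families of axon guidance, Dscam genes, robo receptors and the myoblast fusion receptors, had a summit in 23 loci against 29.0 expected from length. It held 56 summits inside the genes, 2.53 per 100 kb (exact 95% Poisson interval 1.91 to 3.29), where dpr and DIP genes had 0.253. These lay in 17 of the 46 genes, where 21.8 genes were expected from length. The highest signals in these loci were 483.1 at kirre, a receptor of muscle founder cells, and 368.4 at beat-Ib. Of the 56 summits, 22 lay inside kirre alone, and the rate without it was not computed. The list was made for comparison with earlier results of these data known, and the intervals cover counting error only.

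**Figure D4:**
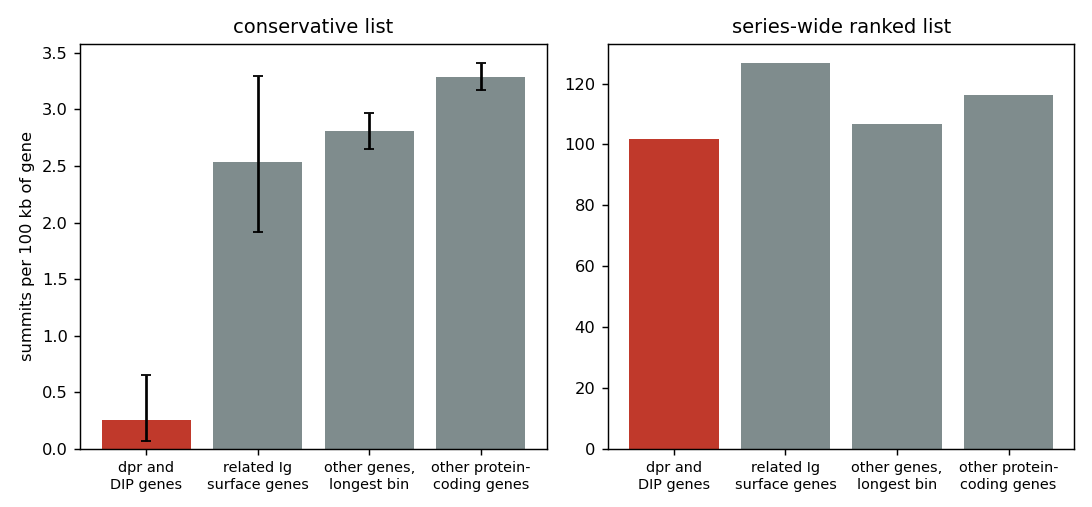
Summits per 100 kb of gene in the conservative list (left, bars with exact 95% Poisson intervals) and in the series-wide ranked list (right), for dpr and DIP genes, related immunoglobulin superfamily surface genes, other genes in the longest of 20 length bins and all other protein-coding genes. Dpr and DIP genes stand at 0.253 on the left, against 2.53 to 3.29 in the other groups, and at 101.9 on the right, against 106.7 to 126.7.

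Dpr and DIP genes held the smallest share of the strongest peaks and a larger one of each weaker group. Dpr and DIP genes make up 1.18% of the length of the arms. Of the 5000 strongest ranked peaks, 5 lay in these genes, 0.1% (95% Clopper-Pearson interval 0.0325 to 0.233), or 0.0848 of their share of length. The ratio was 0.220 for ranks 5001 to 10000 (13 peaks), 0.432 for ranks 10001 to 20000 (51 peaks), 0.754 for ranks 20001 to 50000 (267 peaks) and 1.11 for the remaining ranks (1274 peaks). Other genes of the longest bin went through the same ranks with ratios of 0.801, 0.830, 0.848, 0.924 and 1.01. For the related immunoglobulin superfamily genes the ratios were 0.727, 0.848, 0.733, 1.12 and 1.24. In every group of ranks these were above those of dpr and DIP genes.

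Both replicates showed this order in their own ranked lists. Among the 5000 strongest peaks of replicate 1, 8 lay in dpr and DIP genes, a ratio of 0.136 (interval 0.0586 to 0.267), against 0.765 for other genes of the longest bin. Among those of replicate 2, 4 did, a ratio of 0.0678 (interval 0.0185 to 0.174), against 0.796. In ranks past 50000 the family's ratio was 1.13 in replicate 1 and 0.986 in replicate 2.

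**Figure D5:**
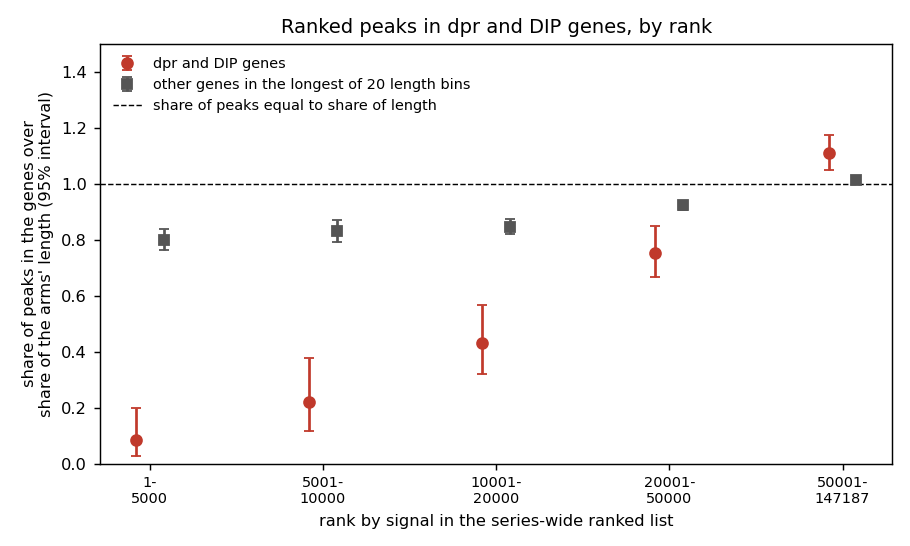
Share of ranked peaks inside the genes divided by the genes' share of the arms' length, in 5 groups of peaks by rank of signal, with 95% Clopper-Pearson intervals, for dpr and DIP genes (red circles) and other genes in the longest of 20 length bins (grey squares). The red points run from 0.0848 among the strongest 5000 peaks to 1.11 among the weakest, and the grey points from 0.801 to 1.01.

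The promoters were searched for the same 4 motifs, and with 32 of them small differences in share cannot be read. In the 250 bases before and 50 after the 5' end of each gene, TATCGATA was found for 1 of 32 dpr and DIP genes (3.13%), against 9.38% of other protein-coding genes. The 1 was dpr14, whose start lies near the spidey summit. TAATTA was in 3 of 32 (9.38%: dpr1, dpr7 and dpr21), against 20.5% of the others. TAACA was in 15 of 32 (46.9%), against 53.7%, and the palindrome in 4 of 32 (12.5%: DIP-eta, DIP-epsilon, dpr6 and dpr7), against 13.4%. Of these 4 only the loci of DIP-eta and dpr6 held a summit, at the distances from the start site given above.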

How the data were processed

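The authors deposited peak lists on dm6, per the labels, which by their names passed an irreproducible discovery rate (IDR) procedure. For the aligner, the peak caller and the control libraries, nothing is stated in the sources used here. Signal is the deposited value of each peak, with a normalization that is not stated, and served only to describe or rank peaks within a list. The deposited ranked lists also hold a value read as −log10 of the global IDR, since no header names it. The deposited score column was not used, and the summit offset was.

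Gene models were those of Ensembl 115 (assembly BDGP6.54, equal to dm6) without transposable elements. Flanks were 5000 bp and promoters 500 bp on each side of any annotated TSS. Expected counts came from the other genes in 20 bins of locus length. A replicate's peak was matched within 150 bp. Intervals are at 95%. No test was run: there is 1 group, and the members and lists were chosen with earlier results of these data known. Named are all dpr and DIP genes, the gene whose TSS is nearest to a summit and the 2 comparison genes of highest signal. The counting was tested on simulated data. The work used matplotlib 3.10.9, scipy 1.17.1, numpy 2.4.6, pandas 2.3.3 and Python 3.11.15.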

Additional observations from a re-analysis of the deposited data

How the results depend on the processing

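No paired analysis was possible because the 2 replicates form 1 group. The ratio of bound loci to the number expected from length (0.505) stayed below 1 under every alternative run, from 0.210 with each summit given to its nearest protein-coding TSS to 0.715 without length matching, where its interval of 0.369 to 1.14 includes 1. With nearest-TSS assignment 3 members were bound (1 dpr, 2 DIP) by 3 summits, 0% at promoters, and no rate per locus length was computed. Without flanks 4 were bound (2 dpr, 2 DIP) by 4 summits, 0.253 per 100 kb and 75% intronic. With the peaks above the median signal alone 6 were bound (3 dpr) by 7 summits. Leaving out a replicate, by taking the list of the other, gave 6 (without replicate 2) to 9 bound loci (without replicate 1), 3 to 5 of them dpr, with 6 to 12 summits and 0.316 to 0.633 per 100 kb. The other thresholded list gave 10 bound loci and 16 summits. Of 96 pairs of a member and another list, 15 differed in summit count by over 1.5 times. Among them dpr12 had none in the other 3 lists, dpr6 had none in either replicate's list, and dpr2 and dpr9 had 1 in a single one. The rest were pairs of dpr3, dpr14, dpr19, dpr20 and DIP-eta. Of the bound loci, those of DIP-alpha, DIP-delta and DIP-iota had 1 summit in every list. Leaving out DIP-lambda and dpr21, or dpr7 and dpr18, was chosen after seeing the data. Intronic and promoter shares rest on 13 summits and are not resolved. With the depth unknown, a locus without a summit is one where no peak was listed.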
